A study of Mus musculus with 12 samples.

Results

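The mitosis and chromosome segregation genes are 49 genes whose products drive entry into mitosis, build the spindle, hold sister chromosomes to it and part the daughter cells. They were taken by gene symbol from a table of log2 expression values for 26121 genes, and all 49 were found. A gene below 0 on the log2 scale, that is below 1 CPM (reads scaled to the size of the library), in more than 9 of the 12 columns would have been dropped. That removed 0 of the 49, since 3 genes fell below 0 in any column and none of the 49 in more than 2. The members were described as deposited and relative to Ptprc, the gene of the pan-leukocyte protein CD45.

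The libraries came from dendritic cells sorted from the kidneys of 6 wildtype male mice, 8 to 12 weeks old. Of these, 3 were healthy and 3 had nephrotoxic nephritis (NTN), an immune disease of the glomerulus, started 7 days earlier with the nephrotoxic nephritis antiserum. CD103+ and CD11b+ dendritic cells were sorted from each mouse, giving 4 groups of 3 libraries (healthy CD103+, healthy CD11b+, nephritic CD103+ and nephritic CD11b+), but no label ties a library number to a mouse. Cells of the cDC1 lineage, which cross-present antigen, carry CD103, and CD11b is found on cDC2 and also on monocytes and macrophages, so that the sort markers alone do not separate CD11b+ dendritic cells from those cells.

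Most transcripts of this kind are scarce in resting cells and accumulate from late S phase to mitosis, when the cyclin B kinase Cdk1 and the Polo and Aurora kinases reorganise the cell. The spindle checkpoint then holds the ubiquitin ligase APC/C in check until every kinetochore is attached, after which securin and cyclin B are destroyed and separase opens cohesin. In the dendritic cell lineage, division is known mainly from bone marrow and tissue precursors, while conventional dendritic cells in tissues are known to divide at a lower rate. Whether the levels below reflect the number of dividing cells or the transcript content of each dividing cell cannot be told apart in bulk RNA.

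Recovered reads ran from 11.5 M to 26.6 M per library, and 3 reads, the limit that a count of 0 allows, corresponded to 0.112 to 0.254 CPM. These limits cover counting error only. The sorts carried their defining genes, with Itgae, which encodes CD103, at 55.5 to 1229 CPM in CD103+ libraries against 1.69 to 5.05 CPM in CD11b+ libraries. The CD103+ range spans the healthy and nephritic groups, which differed in cDC1 transcripts. The summed level of 12 cDC1 markers was 2949 to 6170 CPM in healthy and 11166 to 12926 CPM in nephritic CD103+ libraries. Itgam, which encodes CD11b, stood at 114 to 346 CPM in CD11b+ libraries against 1.45 to 7.32 CPM in CD103+ libraries. Kidney tubule transcripts also differed between the groups. The summed level of 16 tubule markers, all 16 detected, was 31810 to 50515 CPM in healthy CD103+, 7202 to 18665 CPM in healthy CD11b+, 3582 to 4211 CPM in nephritic CD103+ and 3683 to 6158 CPM in nephritic CD11b+ libraries. Ptprc moved the other way, at 307, 177 and 488 CPM in healthy CD103+, 1103, 1009 and 781 CPM in healthy CD11b+, 1269, 1304 and 1190.1 CPM in nephritic CD103+ and 1653, 1657 and 1459 CPM in nephritic CD11b+ libraries. Healthy CD103+ library 2 had the lowest Ptprc value of all 12, and results that rest on this group are given with and without it where that matters.

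Promoter sequences are shown first, because the members share letters there that their choice did not use. Promoters of mitotic genes are known for the cell cycle genes homology region (CHR), to which MuvB complexes bind, and for CCAAT boxes, to which NF-Y binds. The RefSeq promoter table of build GRCm38.p6 (250 bases before to 50 after each start) held 43 promoters of 41 members, and Spc24, Kif20a, Aurkb, Smc4, Incenp, Ccna2, Foxm1 and Tpx2 had no entry. CHR letters (TTTGAA or TTCGAA, either strand) were found in 34 of the 43, or 79.1%, against 19.2% of all 32851 promoters of the table. CCAAT letters (CCAAT, either strand) were found in 33, or 76.7%, against 37.4% of all promoters. Both together were found in 30, or 69.8%, against 7.52%. From 100 bases before to 50 after the start, both were found in 26 of the 43, or 60.5%, against 2.09% of all promoters. A CHR match and a CCAAT match may share a base, as in Kntc1, and a match is a description of the sequence only.

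The following windows run from 150 bases before to 30 after the RefSeq start, 5′ to 3′ on the strand of the gene, with CHR and CCAAT letters of either strand in capitals. Top2a is shown as the member whose promoter held the most matches, and Ccnb2 as a cyclin with 3 CCAAT boxes. Kif11 and Ube2c are shown as members with the largest differences between the subsets. Espl1 is shown as the member whose highest group, as deposited, differed from the rest, and Nusap1 as a strongly changed member with no match.
Top2a (chr11:99024160-99024339, minus strand): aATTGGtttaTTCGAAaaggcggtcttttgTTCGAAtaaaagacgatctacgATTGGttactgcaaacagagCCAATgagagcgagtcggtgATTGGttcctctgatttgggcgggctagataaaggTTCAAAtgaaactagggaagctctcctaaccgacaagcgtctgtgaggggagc
Ccnb2 (chr9:70421525-70421704, minus strand): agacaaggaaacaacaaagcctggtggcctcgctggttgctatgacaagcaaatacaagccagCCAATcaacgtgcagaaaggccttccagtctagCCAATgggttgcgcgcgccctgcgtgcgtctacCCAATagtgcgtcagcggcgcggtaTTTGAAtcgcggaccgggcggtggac
Kif11 (chr19:37376232-37376411, plus strand): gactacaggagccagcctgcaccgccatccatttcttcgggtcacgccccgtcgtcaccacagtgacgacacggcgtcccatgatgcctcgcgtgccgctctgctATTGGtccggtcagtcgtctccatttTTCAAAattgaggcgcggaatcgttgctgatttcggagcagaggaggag
Ube2c (chr2:164769779-164769958, plus strand): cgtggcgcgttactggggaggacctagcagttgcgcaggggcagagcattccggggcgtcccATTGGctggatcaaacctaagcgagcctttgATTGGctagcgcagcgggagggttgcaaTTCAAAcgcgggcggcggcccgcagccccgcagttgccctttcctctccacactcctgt
Espl1 (chr15:102296143-102296322, plus strand): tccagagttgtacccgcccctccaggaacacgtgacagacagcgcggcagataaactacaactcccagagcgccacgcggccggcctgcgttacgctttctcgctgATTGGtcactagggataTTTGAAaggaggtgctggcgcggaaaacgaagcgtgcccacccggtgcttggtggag
Nusap1 (chr2:119618148-119618327, plus strand): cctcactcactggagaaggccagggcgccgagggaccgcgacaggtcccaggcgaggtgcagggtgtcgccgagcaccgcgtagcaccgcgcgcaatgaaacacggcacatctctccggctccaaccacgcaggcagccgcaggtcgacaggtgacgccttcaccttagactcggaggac

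In the Top2a window, matches of CHR letters began 140, 120 and 23 bases before the start, and CCAAT letters began 149, 98, 78 and 58 bases before it. Kif11, Ube2c and Espl1 each held 1 CHR match, which began 19, 29 and 27 bases before the start. In the Ccnb2 window the CHR match began at base 5 after the start. In the Nusap1 window neither set of letters was present. CCAAT letters began 45 bases before the start in Kif11 and 44 bases before it in Espl1.

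**Figure D1:**
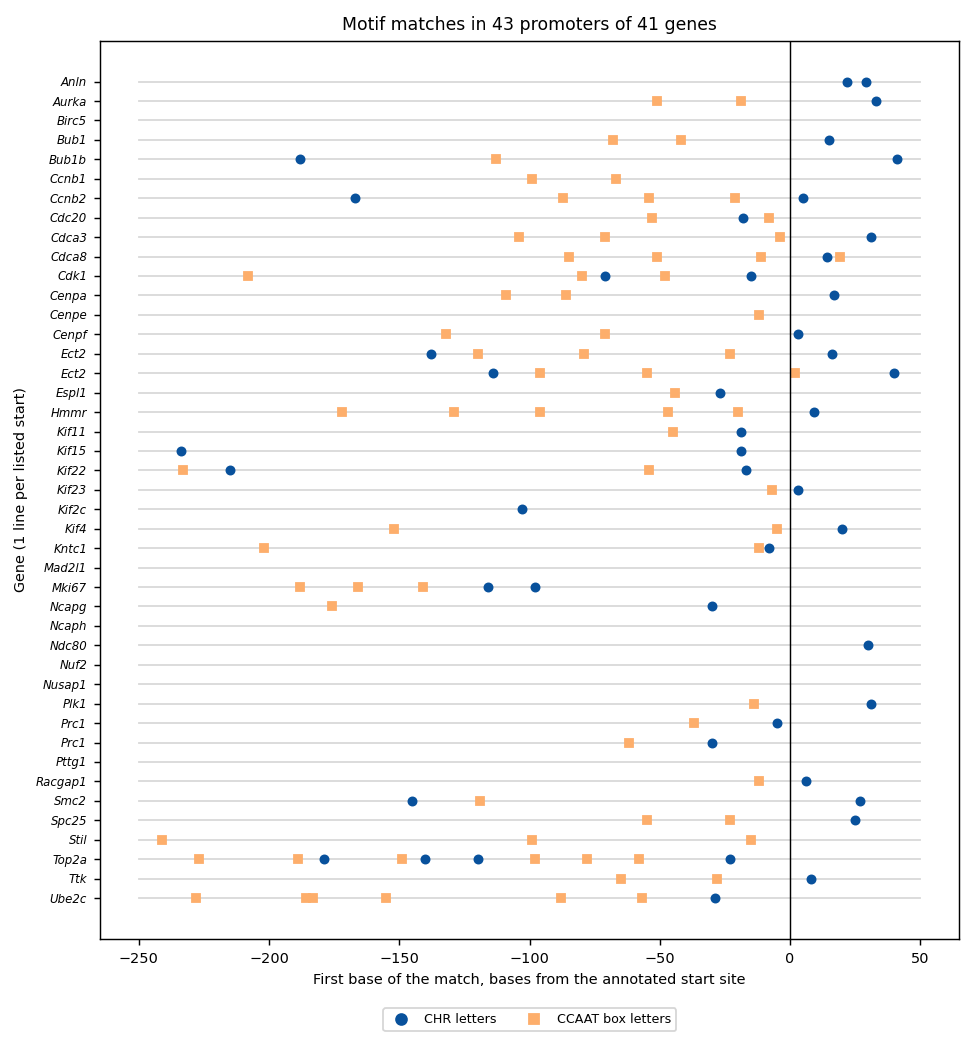
Positions of CHR letters (circles) and CCAAT letters (squares) in 43 promoters of 41 members, with bases from the annotated start on the x axis and 1 line per listed start on the y axis. CHR letters were found in 34 promoters and CCAAT letters in 33, and from 100 bases before to 50 after the start they were found in 33 and 29.

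As deposited, the levels formed 1 order for most members. Nephritic CD103+ cells had the highest mean log2 level for 48 of 49 members, and for all 48 their 3 libraries lay above each of the other 9 libraries, against 11.3% of the 14180 genes tested. Espl1, which encodes separase, was the exception and was highest in nephritic CD11b+ cells. Healthy CD103+ cells were lowest for 46 members, healthy CD11b+ cells for Spc25 and Cdc20, and nephritic CD11b+ cells for Ube2c. The summed level of the 49 genes was 474, 426 and 673 CPM in healthy CD103+ libraries and 1043, 928 and 904 CPM in healthy CD11b+ libraries. It was 3058, 2763 and 2887 CPM in nephritic CD103+ libraries and 1331, 1481 and 1401 CPM in nephritic CD11b+ libraries. The 4 groups did not overlap in this sum. In nephritic CD103+ libraries the 49 genes made up 0.276% to 0.306% of the library.

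**Figure D2:**
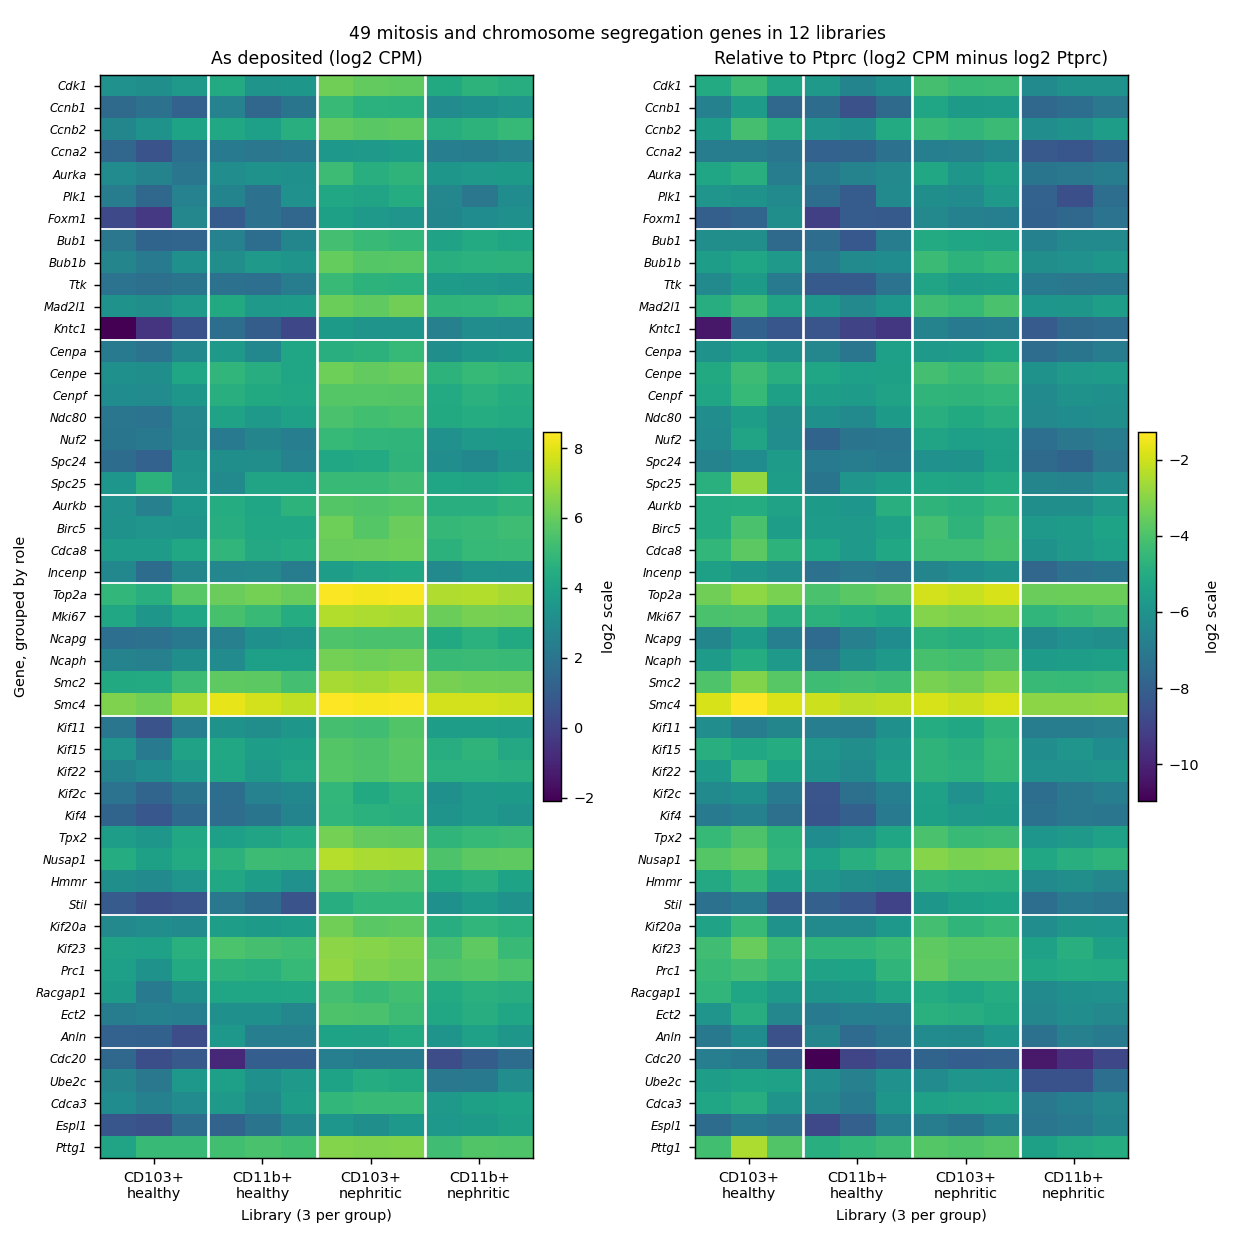
Level of each of the 49 genes (rows, grouped by role) in each of 12 libraries (columns, 3 per group), as deposited on the left (log2 CPM) and relative to Ptprc on the right (log2 CPM minus log2 CPM of Ptprc). As deposited, nephritic CD103+ libraries were the brightest columns for 48 genes, while relative to Ptprc healthy CD103+ libraries were the highest group for 6 genes.

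Among the regulators of mitotic entry, Cdk1 stood at 9.35, 8.96 and 12.3 CPM in healthy CD103+ libraries and at 20.7, 10.4 and 11.2 CPM in healthy CD11b+ libraries. Its nephritic levels were 72.6, 61.1 and 57.9 CPM in nephritic CD103+ libraries and 20.1, 26.1 and 22.3 CPM in nephritic CD11b+ libraries. Cdk1 is the kinase that starts mitosis, and its nephritic CD103+ values lay far above all others. The healthy groups overlapped each other, and the healthy CD11b+ range overlapped the nephritic CD11b+ range. Ccnb2 stood at 6.61, 10.1 and 16.2 CPM in healthy CD103+ libraries and at 18.3, 14.6 and 23.9 CPM in healthy CD11b+ libraries. In nephritis this B-type cyclin, a partner of Cdk1, reached 60.0, 54.5 and 57.9 CPM in nephritic CD103+ libraries and 22.3, 26.3 and 31.3 CPM in nephritic CD11b+ libraries, again with no overlap between the nephritic subsets. The healthy and nephritic CD11b+ ranges of Ccnb2 overlapped. Ccnb1, the cyclin that carries Cdk1 into the nucleus, was scarcer, at 2.94, 3.55 and 2.30 CPM in healthy CD103+ and 5.92, 2.62 and 3.95 CPM in healthy CD11b+ libraries. It rose to 33.3, 25.2 and 24.6 CPM in nephritic CD103+ libraries and 8.03, 9.24 and 10.7 CPM in nephritic CD11b+ libraries. The nephritic CD11b+ values of Ccnb1 lay above all 6 healthy values.

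Of the spindle checkpoint, Mad2l1 stood at 10.0, 8.69 and 12.2 CPM in healthy CD103+ libraries and at 19.9, 12.0 and 13.3 CPM in healthy CD11b+ libraries. Its nephritic levels were 67.5, 58.4 and 71.8 CPM in nephritic CD103+ libraries and 28.2, 29.1 and 31.9 CPM in nephritic CD11b+ libraries. Mad2l1 encodes Mad2, the inhibitor that binds Cdc20, and both nephritic groups lay above both healthy groups. Bub1b stood at 6.54, 4.59 and 9.15 CPM in healthy CD103+ libraries and at 8.54, 12.3 and 10.1 CPM in healthy CD11b+ libraries. For this gene, which encodes the checkpoint kinase-like protein BubR1, the nephritic values were 62.2, 50.5 and 51.9 CPM in nephritic CD103+ libraries and 22.9, 24.9 and 25.8 CPM in nephritic CD11b+ libraries. The healthy groups overlapped, and each nephritic group stood apart from the healthy ones and from the other nephritic group.

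Of the kinetochore genes, Cenpe stood at 9.08, 8.96 and 17.0 CPM in healthy CD103+ libraries and at 28.7, 22.6 and 17.8 CPM in healthy CD11b+ libraries. Cenpe is the kinesin that brings chromosomes to the metaphase plate, and its nephritic levels were 70.5, 61.3 and 66.9 CPM in nephritic CD103+ libraries and 26.3, 31.8 and 28.8 CPM in nephritic CD11b+ libraries. The healthy CD11b+ library 1 lay inside the nephritic CD11b+ range. Cenpf stood at 8.08, 7.91 and 11.1 CPM in healthy CD103+ libraries and at 23.7, 20.04 and 18.6 CPM in healthy CD11b+ libraries. Levels of this coiled-coil kinetochore protein in nephritis were 51.8, 51.8 and 50.3 CPM in nephritic CD103+ libraries and 20.6, 25.3 and 21.4 CPM in nephritic CD11b+ libraries. Among CD11b+ libraries the healthy and nephritic values of Cenpf overlapped. Spc25, a subunit of the Ndc80 complex that grips microtubules, was uneven in health, at 10.9, 25.4 and 10.5 CPM in CD103+ and 7.52, 16.8 and 16.9 CPM in CD11b+ libraries. The high value was in CD103+ library 2, the library with the least Ptprc.

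In the chromosomal passenger complex, which corrects faulty attachments, Cdca8 stood at 13.2, 13.3 and 18.9 CPM in healthy CD103+ libraries and at 29.2, 19.1 and 21.9 CPM in healthy CD11b+ libraries. Cdca8 encodes borealin, and its nephritic levels were 65.2, 66.7 and 69.2 CPM in nephritic CD103+ libraries and 26.0, 31.7 and 32.3 CPM in nephritic CD11b+ libraries. The nephritic CD103+ values lay above all others, and the CD11b+ groups overlapped. Birc5 stood at 9.68, 10.7 and 10.2 CPM in healthy CD103+ libraries and at 22.1, 18.4 and 18.1 CPM in healthy CD11b+ libraries. Its product survivin recruits the complex to centromeres, and in nephritis it stood at 69.8, 51.3 and 66.6 CPM in nephritic CD103+ libraries and 30.4, 33.0 and 36.2 CPM in nephritic CD11b+ libraries. No pair of the 4 groups overlapped for Birc5.

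Of the genes of chromosome structure, Smc4 stood at 86.0, 73.6 and 142 CPM in healthy CD103+ libraries and at 271, 213 and 174 CPM in healthy CD11b+ libraries. This condensin ATPase was the most abundant member per kilobase of exon, at 41.4 CPM per kb averaged over the groups, and in nephritis stood at 352, 315 and 337 CPM in nephritic CD103+ libraries and 212, 212 and 200.1 CPM in nephritic CD11b+ libraries. In CD11b+ cells the healthy values of Smc4 covered the nephritic ones. Top2a stood at 29.6, 23.6 and 52.7 CPM in healthy CD103+ libraries and at 65.7, 75.4 and 63.8 CPM in healthy CD11b+ libraries. For this topoisomerase, which untangles sister DNA, the nephritic levels were 333, 312 and 325 CPM in nephritic CD103+ libraries and 146, 151 and 133 CPM in nephritic CD11b+ libraries. All 4 groups of Top2a were separate. Mki67, which coats mitotic chromosomes and is the classic marker of proliferation, stood at 18.4, 11.2 and 17.0 CPM and 41.4, 32.2 and 21.8 CPM in the healthy groups, CD103+ first. It reached 152, 145 and 136 CPM in nephritic CD103+ libraries and 68.4, 77.6 and 77.0 CPM in nephritic CD11b+ libraries, with no overlap between the 4 groups.

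Among spindle genes, Nusap1 stood at 21.4, 14.8 and 20.2 CPM in healthy CD103+ libraries and at 25.5, 34.9 and 34.2 CPM in healthy CD11b+ libraries. Nusap1 bundles spindle microtubules near chromosomes, and its nephritic levels were 154, 139.7 and 134 CPM in nephritic CD103+ libraries and 45.2, 55.6 and 57.2 CPM in nephritic CD11b+ libraries. Each group was separate from the next. Tpx2 stood at 13.8, 11.3 and 18.7 CPM in healthy CD103+ libraries and at 14.4, 16.7 and 21.1 CPM in healthy CD11b+ libraries. For this activator of Aurora A the nephritic values were 77.3, 60.2 and 59.4 CPM in nephritic CD103+ libraries and 27.96, 31.4 and 33.8 CPM in nephritic CD11b+ libraries, and the healthy groups overlapped. Kif11, the motor that pushes spindle poles apart, stood at 4.14, 1.501 and 5.27 CPM in healthy CD103+ and 9.72, 8.71 and 11.2 CPM in healthy CD11b+ libraries. In nephritis it stood at 40.4, 36.9 and 48.6 CPM in nephritic CD103+ libraries and 14.2, 14.1 and 13.5 CPM in nephritic CD11b+ libraries. No pair of the 4 groups overlapped for Kif11, and the nephritic CD11b+ values lay within 1 CPM of each other.

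Of the midzone and cytokinesis genes, Kif23 stood at 16.0, 15.3 and 24.0 CPM in healthy CD103+ libraries and at 44.2, 41.2 and 36.2 CPM in healthy CD11b+ libraries. Kif23 is the motor subunit of centralspindlin, and its nephritic levels were 98.5, 93.1 and 84.9 CPM in nephritic CD103+ libraries and 39.1, 56.7 and 33.6 CPM in nephritic CD11b+ libraries. The CD11b+ groups overlapped for Kif23. Prc1 stood at 14.6, 9.73 and 20.4 CPM in healthy CD103+ libraries and at 26.5, 24.6 and 31.6 CPM in healthy CD11b+ libraries. Levels of this bundler of midzone microtubules in nephritis were 106, 85.0 and 78.0 CPM in nephritic CD103+ libraries and 46.9, 51.8 and 44.4 CPM in nephritic CD11b+ libraries. All 4 groups of Prc1 were separate.

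Of the genes of anaphase proteolysis, Pttg1 stood at 16.6, 32.2 and 33.0 CPM in healthy CD103+ libraries and at 38.6, 43.3 and 38.7 CPM in healthy CD11b+ libraries. Pttg1 encodes securin, the inhibitor of separase, and in nephritis stood at 89.5, 84.9 and 86.9 CPM in nephritic CD103+ libraries and 37.6, 48.2 and 46.8 CPM in nephritic CD11b+ libraries. The CD11b+ groups overlapped and the nephritic CD103+ libraries stood apart. Cdca3 stood at 8.08, 5.78 and 7.88 CPM in healthy CD103+ libraries and at 12.2, 7.72 and 13.8 CPM in healthy CD11b+ libraries. Cdca3, which promotes entry into mitosis through destruction of the kinase Wee1, had nephritic levels of 29.8, 32.6 and 32.0 CPM in nephritic CD103+ libraries and 12.1, 15.0 and 16.3 CPM in nephritic CD11b+ libraries. Healthy and nephritic CD11b+ values overlapped. Ube2c, the ubiquitin-conjugating enzyme of the APC/C, stood at 6.48, 4.37 and 11.5 CPM in healthy CD103+ and 14.7, 9.30 and 11.7 CPM in healthy CD11b+ libraries. In nephritis it stood at 16.4, 21.7 and 20.1 CPM in nephritic CD103+ libraries and 4.41, 4.52 and 8.36 CPM in nephritic CD11b+ libraries. All 3 nephritic CD11b+ values of Ube2c lay below the healthy CD11b+ values, a pattern of no other member. Espl1 (separase) stood at 1.60, 1.41 and 3.15 CPM and 2.37, 3.91 and 7.08 CPM in the healthy groups, CD103+ first, and at 10.8, 8.79 and 11.4 CPM in nephritic CD103+ libraries and 11.4, 12.7 and 15.1 CPM in nephritic CD11b+ libraries. The 2 nephritic groups of Espl1 nearly touched.

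**Figure D3:**
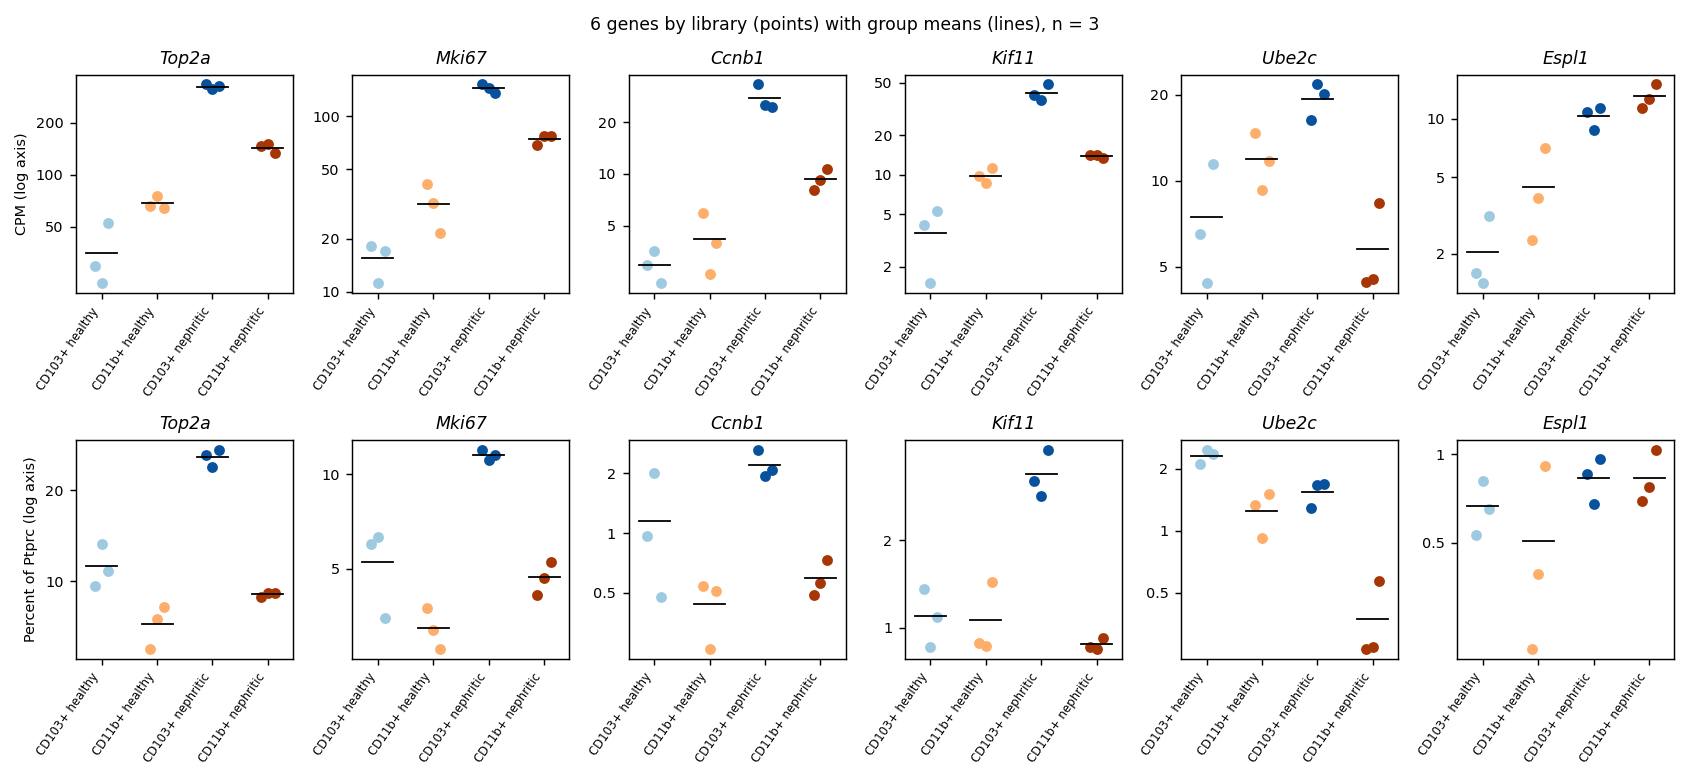
Levels of Top2a, Mki67, Ccnb1, Kif11, Ube2c and Espl1 in each library (points) with the mean of each group (lines, n = 3), in CPM in the upper row and as a percentage of Ptprc in the lower row, all on log axes. Nephritic CD103+ libraries were above all other libraries for the first 5 genes in CPM, and relative to Ptprc they were for Top2a, Mki67 and Kif11 but not for Ccnb1 and Ube2c.

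As deposited, every member made up a larger share of nephritic than of healthy CD103+ libraries. The log2 difference against healthy CD103+ cells ran from 1.26 to 4.14, with a median of 2.57 (5.92-fold), against a median of 0.16 over all genes tested. All 49 were called higher and 0 lower (limma, adjusted p under 0.05 over 14180 genes), where 34.6% of all genes were higher and 27.8% lower. This count of 0, and every other count of 0 genes called given below unless stated there, was also 0 at an unadjusted p under 0.05, and on the deposited scale it was 0 with limma's voom on recovered reads. All 49 also had no overlap between the groups, against 37.6% of genes. Beside this, the tubule markers of nephritic CD103+ libraries summed to no more than 4211 CPM, against at least 31810 CPM in healthy ones, and Ptprc rose 4.20-fold. Each marker sum, here and below, covers every gene of its list that was found. Brackets give how many of the listed genes reached 1 CPM in at least 3 libraries. Markers of the sorted cells and of leukocytes at large were higher in nephritic libraries without overlap, healthy first. Those of cDC1 (12 of 12) were 2949 to 6170 CPM and 11166 to 12926 CPM. Conventional dendritic cell markers (7 of 7) were 34472 to 76279 CPM and 106347 to 118120 CPM, and pan-leukocyte markers (29 of 30) 3122 to 6912 CPM and 16292 to 17544 CPM. Markers of immune cells other than the sorted ones also differed, healthy first. T cell markers (16 of 16 measured) were 179 to 297 CPM and 539 to 650 CPM, NK cell markers (9 of 11) 42.8 to 66.2 CPM and 148 to 172 CPM, and plasmacytoid dendritic cell markers (6 of 6) 91.0 to 118 CPM and 182 to 193 CPM. Monocyte markers (9 of 10) were 312 to 618 CPM, with Vcan at 0, and 1628 to 2006 CPM, and macrophage markers (13 of 14) 176 to 273 CPM and 383 to 468 CPM, with Vsig4 at 0 in both. The sums of these 5 lists were higher in nephritic libraries without overlap. The macrophage sum was mostly Cd68, at a mean of 170 CPM in healthy and 377 CPM in nephritic libraries. The mean log2 level of the 13 measured macrophage markers was 1.32 and 1.39. The monocyte sum was mostly Ccr2, at 346 and 1445 CPM, with a mean log2 level of 1.86 and 2.85. B and plasma cell markers (10 of 12), at 96.1 to 462 CPM and 109 to 326 CPM, overlapped. Neutrophil markers (7 of 13), at 0.534 to 3.87 CPM and 1.46 to 2.40 CPM, overlapped too. Endothelial and mesangial markers (9 of 10) were 68.0 to 220.5 CPM and 35.2 to 51.7 CPM, and erythroid markers (1 of 8) 14.4 to 49.9 CPM and 1.51 to 2.08 CPM. The part of these cells, of tubule RNA and of Ptprc in the differences was not tested.

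The largest rises were in Kntc1, a subunit of the RZZ complex that loads the checkpoint onto kinetochores, Stil, which is needed for centriole duplication, and Kif11. Kntc1 stood at 0.200, 0.682 and 1.45 CPM in healthy and 12.7, 10.4 and 10.3 CPM in nephritic CD103+ libraries, and rose by 4.14 ± 0.56 (17.7-fold, adjusted p = 2.46e-05) on the log2 scale (± SE here and below). The first of those healthy values was 3 reads, so the fitted fold of Kntc1 depends on the offset of the log scale. Its rise was 3.43 without healthy CD103+ library 1 and 4.77 without library 3, a move of over 1.5 times either way. Stil stood at 1.87, 1.36 and 1.58 CPM in healthy and 22.0, 29.4 and 29.6 CPM in nephritic libraries, a rise of 4.05 ± 0.35 (16.5-fold, adjusted p = 5.44e-07). Kif11, with the levels and the promoter given above, rose by 3.69 ± 0.35 (12.9-fold, adjusted p = 1.17e-06).

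By role, the median rise was 2.48 for the 7 entry genes, 3.06 for the 5 checkpoint genes, 2.52 for the 7 kinetochore genes and 2.34 for the 4 passenger complex genes. It was 3.26 for the 6 genes of chromosome structure, 2.88 for the 9 spindle genes, 2.77 for the 6 midzone genes and 1.74 for the 5 genes of anaphase proteolysis. The member with the smallest adjusted p of each role was Cdk1 at 2.65 ± 0.24 (6.28-fold, adjusted p = 8.67e-07), Mad2l1 at 2.68 ± 0.20 (6.43-fold, adjusted p = 1.90e-07) and Cenpf at 2.52 ± 0.17 (5.74-fold, adjusted p = 1.10e-07). Birc5 rose by 2.60 ± 0.16 (6.07-fold, adjusted p = 7.40e-08). Ncapg, a subunit of condensin I, rose by 3.56 ± 0.23 (11.8-fold, adjusted p = 8.60e-08). For Nusap1 the rise was 2.94 ± 0.17 (7.65-fold, adjusted p = 6.94e-08), and for Kif20a, the motor that brings the passenger complex to the midzone, 2.93 ± 0.16 (7.65-fold, adjusted p = 5.12e-08). Cdca3 rose by 2.13 ± 0.23 (4.37-fold, adjusted p = 3.72e-06). The smallest rises were in Spc25 at 1.26 ± 0.34 (2.40-fold, adjusted p = 0.00523), in Ube2c at 1.48 ± 0.34 (2.80-fold, adjusted p = 0.00185) and in Cdc20, the APC/C activator that the checkpoint holds, at 1.42 ± 0.53 (2.67-fold, adjusted p = 0.03). The call of Cdc20 was lost in 5 of the 6 fits that left out 1 library of these groups, with adjusted p from 0.0576 to 0.0989, and was kept without healthy CD103+ library 1, at 1.69 (adjusted p = 0.0265).

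Relative to Ptprc the same differences were smaller. With every library shifted to 1 value of Ptprc, each gene's difference moved by the same amount, and only its spread and test were its own. The median of all genes moved from 0.16 to -1.91, and the median of the members from 2.57 to 0.49. The members above 0 numbered 43, and 16 were called higher and 0 lower, against 0.959% higher and 81% lower over 14179 genes. Without healthy CD103+ library 2, 30 were called higher and 0 lower, against 2.07% and 75.1% of genes. When the shift used the mean of 29 pan-leukocyte genes, 38 were called higher and 0 lower, against 2.64% and 71% of genes, and the median was 0.98 against -1.43 for all genes. Without that library, 38 were again called higher and 0 lower with this shift, against 3.96% and 64.5% of genes. The 16 were Ccnb1, Bub1, Bub1b, Kntc1, Ndc80, Top2a, Mki67, Ncapg, Ncaph, Kif11, Kif4, Nusap1, Stil, Kif20a, Ect2 and Anln. Top2a was 9.63, 13.3 and 10.8 percent of Ptprc in healthy and 26.3, 23.9 and 27.3 percent in nephritic CD103+ libraries. Stil differed by 1.98 (adjusted p = 4.82e-04) and Kif11 by 1.62 (adjusted p = 3.58e-04) on this scale. Spc25, Ube2c and Cdc20 had negative values there, at -0.81 (adjusted p = 0.182), -0.59 (adjusted p = 0.146) and -0.65 (adjusted p = 0.342), and none passed the test.

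CD11b+ cells in nephritis showed a smaller and more divided pattern. Of 49 members, 25 were called higher and 1 lower than in healthy CD11b+ cells, against 20.1% higher and 15.8% lower over all genes, and 23 did not pass. The median log2 difference was 0.67 (1.60-fold), against 0.08 for all genes. With no overlap between the groups, 31 were higher and 1 lower, against 28.2% and 22.9% of genes. Tubule markers were 7202 to 18665 CPM in the healthy and 3683 to 6158 CPM in the nephritic group. Macrophage markers (13 of 14 measured) were 1016 to 1209 CPM in the healthy and 2312 to 2612 CPM in the nephritic group. B and plasma cell markers (10 of 12 measured) were 1367 to 2413 CPM and 302 to 869 CPM in the same order. T cell markers were 830 to 1127 CPM and 627 to 751 CPM, and NK cell markers 307 to 332 CPM and 146 to 182 CPM. Monocyte markers were 1189 to 1551 CPM, with Vcan at 0, and 2502 to 2939 CPM, and neutrophil markers 66.7 to 139 CPM, with Ly6g, Camp and Mpo at 0, and 165 to 269 CPM, with Ly6g at 0. Macrophage, monocyte and neutrophil markers were higher, and tubule, lymphocyte and NK cell markers lower, in nephritic CD11b+ libraries without overlap. The part of any of them in the differences was not tested.

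All 5 checkpoint genes were higher, against 20.1% of all genes, with a median of 1.59. The one with the smallest adjusted p, Ttk, the kinase Mps1 at the head of the checkpoint, rose by 1.59 ± 0.22 (3.00-fold, adjusted p = 1.36e-04). Bub1, the kinase that recruits BubR1, stood at 6.00, 3.22 and 6.79 CPM in healthy and 15.9, 20.3 and 17.5 CPM in nephritic CD11b+ libraries, a rise of 1.80 ± 0.29 (3.49-fold, adjusted p = 4.66e-04). Kntc1 rose by 1.90 ± 0.56 (3.72-fold, adjusted p = 0.0173), a call lost without healthy library 3 (1.51, adjusted p = 0.0663) or without nephritic library 2 (1.78, adjusted p = 0.0643) or 3 (1.83, adjusted p = 0.0523). Among the 9 spindle genes 6 were higher, led by Stil, which stood at 4.31, 3.12 and 1.48 CPM in healthy and 9.30, 13.5 and 10.1 CPM in nephritic libraries and rose by 1.99 ± 0.35 (3.96-fold, adjusted p = 7.30e-04).

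Of the 6 genes of chromosome structure 5 were higher, with Ncaph, the kleisin of condensin I, at 1.502 ± 0.23 (2.83-fold, adjusted p = 3.02e-04). Smc4 was the sixth and did not pass, at -0.05 ± 0.21 (1.04-fold lower, adjusted p = 0.87). The entry genes were divided, with 3 of 7 higher. Ccnb1 rose by 1.22 ± 0.30 (2.33-fold, adjusted p = 0.00584), while Plk1, the Polo kinase of mitotic entry, had a difference of 0.06 ± 0.38 (1.04-fold, adjusted p = 0.918). Of the midzone genes 3 of 6 were higher, with Ect2, the exchange factor that activates RhoA for the cleavage furrow, at 1.19 ± 0.19 (2.29-fold, adjusted p = 3.33e-04) and Kif23 at 0.06 ± 0.21 (1.04-fold, adjusted p = 0.849).

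Kinetochore and passenger complex genes mostly did not pass. Of 7 kinetochore genes 1 was higher, Nuf2 of the Ndc80 complex, at 1.01 ± 0.23 (2.01-fold, adjusted p = 0.00409). Of 4 passenger complex genes 1 was higher, Birc5, at 0.77 ± 0.16 (1.70-fold, adjusted p = 0.0022). Both shares lay near the 20.1% of all genes called higher. They are not read as a pattern of these roles. In the anaphase group the members went apart. Espl1 rose by 1.68 ± 0.38 (3.20-fold, adjusted p = 0.00416), and Ube2c fell, at -1.09 ± 0.34 (2.13-fold lower, adjusted p = 0.0237). It was the one member called lower and was named after its values were seen. That call was lost without healthy CD11b+ library 1, or without nephritic CD11b+ library 1 or 2. Exons of Ube2c share 16.0% of their 50-base stretches with other genes, Tnnc2 and another gene model foremost. Some of its reads could therefore belong to those genes.

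Relative to Ptprc, 1 member, Stil, was called higher in nephritic CD11b+ cells and 2, Ube2c and Smc4, lower, against 1.66% higher and 24.9% lower over all genes. The median of the members was -0.06, and that of all genes -0.66. Stil differed by 1.25 (adjusted p = 0.0373), Smc4 by -0.79 (adjusted p = 0.0257) and Ube2c by -1.82 (adjusted p = 0.00259). With the leukocyte shift 10 were higher and 1 lower, against 4.92% and 18.5% of genes, with a median of 0.29 against -0.30.

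Between healthy subsets, the sign of the difference depended on the scale, since each shift moved every gene by the same amount. On each scale the median of the members lay above that of all genes. As deposited, 33 members were higher in CD11b+ than in CD103+ cells and 0 lower, against 25.4% higher and 24.5% lower over all genes, with a median of 0.77 against 0.02. With no overlap, 24 were higher, against 26.6% of genes. Relative to Ptprc 0 were higher and 30 lower, against 2.97% and 76.3% of genes, with a median of -0.91 against -1.66. With the leukocyte shift 0 were higher and 11 lower, against 5% and 67.8% of genes, with a median of -0.50 against -1.25. Without healthy CD103+ library 2, 0 were higher and 22 lower relative to Ptprc, against 4.3% and 68.6% of genes. With the leukocyte shift and without that library, 1 was higher and 9 lower, against 6.3% and 59.6%. The rescaled counts lower all lay below the shares over all genes and are not read as a fall of the members. Tubule markers differed over this comparison by the ranges given above, and Ptprc was 3.20-fold higher in CD11b+ cells. Markers of other immune cells were higher in healthy CD11b+ than in healthy CD103+ libraries without overlap. With CD103+ first, T cell markers were 179 to 297 CPM and 830 to 1127 CPM, NK cell markers 42.8 to 66.2 CPM and 307 to 332 CPM, and B and plasma cell markers 96.1 to 462 CPM, with Pax5 at 0, and 1367 to 2413 CPM. Macrophage markers were 176 to 273 CPM, with Vsig4 at 0, and 1016 to 1209 CPM, monocyte markers 312 to 618 CPM and 1189 to 1551 CPM, both with Vcan at 0, and neutrophil markers 0.534 to 3.87 CPM and 66.7 to 139 CPM. The part of any of them was not tested.

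As deposited, the largest healthy differences were in Anln, the cleavage furrow scaffold anillin, at 1.86 ± 0.33 (3.64-fold, adjusted p = 5.06e-04), in Kntc1 at 1.65 ± 0.56 (3.13-fold, adjusted p = 0.0253) and in Kif11 at 1.61 ± 0.35 (3.05-fold, adjusted p = 0.00185). Kntc1 overlapped between the groups, and its value was 0.94 (adjusted p = 0.111) without healthy CD103+ library 1 and 2.27 (adjusted p = 0.00209) without library 3. Its call was also lost without healthy CD11b+ library 1 (1.28, adjusted p = 0.0983) or 2 (1.63, adjusted p = 0.0578). All 6 genes of chromosome structure and all 6 midzone genes were called higher in CD11b+ cells, with Smc4 at 1.16 ± 0.21 (2.24-fold, adjusted p = 5.54e-04) and Kif23 at 1.16 ± 0.21 (2.23-fold, adjusted p = 4.57e-04). Ndc80, the namesake of the microtubule-gripping complex, differed by 1.60 ± 0.21 (3.02-fold, adjusted p = 5.70e-05) and Birc5 by 0.93 ± 0.16 (1.90-fold, adjusted p = 3.50e-04). Ccna2, the cyclin of S phase and G2, differed by 0.92 ± 0.29 (1.89-fold, adjusted p = 0.0175) and Pttg1 by 0.62 ± 0.22 (1.54-fold, adjusted p = 0.0283). The call of Ccna2 was lost without healthy CD103+ library 2 (0.60, adjusted p = 0.0765), and that of Pttg1 without healthy CD103+ library 1 (0.30, adjusted p = 0.113) or healthy CD11b+ library 2 (0.57, adjusted p = 0.0826). Ttk, Nuf2 and Spc25 had the smallest differences, at 0.11 ± 0.22 (1.08-fold, adjusted p = 0.699), 0.18 ± 0.23 (1.14-fold, adjusted p = 0.523) and -0.15 ± 0.34 (1.11-fold lower, adjusted p = 0.735). Relative to Ptprc, Anln differed by 0.19 (adjusted p = 0.729), Ndc80 by -0.08 (adjusted p = 0.816), and Ttk and Nuf2 by -1.57 (adjusted p = 0.00208) and -1.49 (adjusted p = 0.00149).

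Between nephritic subsets, the members were lower in CD11b+ than in CD103+ cells on every scale tried. As deposited, 41 of 49 were called lower and 0 higher, against 8.21% lower and 9.66% higher over all genes. The median was -1.13, or 2.19-fold lower, against 0.01 for all genes. With no overlap, 48 were lower and 1 higher, against 21.5% and 21.7% of genes. Relative to Ptprc 41 were lower and 0 higher, against 5.99% and 3.58% of genes, with a median of -1.47 against -0.33. After the leukocyte shift 40 were lower and 0 higher, against 5.56% and 6.26% of genes, with a median of -1.19 against -0.05. When 1 library was left out, 34 to 38 were called lower.

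Markers of other cells were summed in the same libraries. Tubule markers were 3582 to 4211 CPM in nephritic CD103+ and 3683 to 6158 CPM in nephritic CD11b+ libraries. T cell markers (16 of 16 measured) were 539 to 650 CPM and 627 to 751 CPM, NK cell markers (9 of 11 measured) 148 to 172 CPM and 146 to 182 CPM, and B and plasma cell markers 109 to 326 CPM and 302 to 869 CPM, CD103+ first. Macrophage markers were 383 to 468 CPM, with Vsig4 at 0, and 2312 to 2612 CPM. Monocyte markers (9 of 10 measured) were 1628 to 2006 CPM and 2502 to 2939 CPM, led by Ccr2, which dendritic cells also express. Neutrophil markers (7 of 13 measured) were 1.46 to 2.40 CPM, with Ly6g and Cxcr2 at 0, and 165 to 269 CPM, with Ly6g at 0. Erythroid markers, 1 of 8 measured, were 1.51 to 2.08 CPM and 1.499 to 2.90 CPM. Plasmacytoid dendritic cell markers (6 of 6 measured) were 182 to 193 CPM and 255 to 268 CPM, and endothelial and mesangial markers (9 of 10 measured) 35.2 to 51.7 CPM and 54.5 to 68.7 CPM. For each of these lists the nephritic CD11b+ range lay above the CD103+ range or overlapped it, and the part of any of them was not tested.

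Ube2c had the largest difference between the nephritic subsets, at -1.80 ± 0.34 (3.49-fold lower, adjusted p = 0.00174), and the levels given above show 16.4 CPM or more in each CD103+ library against 8.36 CPM or less in each CD11b+ library. Plk1 followed at -1.60 ± 0.38 (3.03-fold lower, adjusted p = 0.00801), with 18.1, 16.9 and 21.8 CPM in CD103+ and 6.80, 4.22 and 8.28 CPM in CD11b+ libraries. For Kif11 the difference was -1.58 ± 0.35 (2.99-fold lower, adjusted p = 0.00491). Relative to Ptprc these 3 genes differed by -2.14 (adjusted p = 7.83e-04), -1.94 (adjusted p = 0.00876) and -1.92 (adjusted p = 8.29e-04).

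All 9 spindle genes and all 6 genes of chromosome structure were called lower in CD11b+ cells, with medians of -1.23 and -1.01. Nusap1 had the smallest adjusted p of all members, at -1.44 ± 0.17 (2.71-fold lower, adjusted p = 3.84e-05), and its promoter window held neither motif. Top2a differed by -1.17 ± 0.22 (2.26-fold lower, adjusted p = 0.0015). Of 7 entry genes 6 were lower, with Cdk1 at -1.48 ± 0.24 (2.80-fold lower, adjusted p = 5.06e-04), and of 7 kinetochore genes 6, with Cenpf at -1.20 ± 0.17 (2.30-fold lower, adjusted p = 1.71e-04). Of 5 checkpoint genes 4 were lower, with Mad2l1 at -1.15 ± 0.20 (2.21-fold lower, adjusted p = 8.48e-04), of 4 passenger complex genes 3, with Cdca8 at -1.17 ± 0.19 (2.24-fold lower, adjusted p = 4.79e-04), and of 6 midzone genes 4, with Kif20a at -1.26 ± 0.16 (2.39-fold lower, adjusted p = 7.50e-05).

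The 8 members that did not pass were Cdc20, Spc25, Incenp, Racgap1, Foxm1, Kntc1, Anln and Espl1. Foxm1 is the transcription factor of many late cell cycle genes, Incenp the scaffold of the passenger complex, and Racgap1 the partner of Kif23 in centralspindlin. The 3 with the smallest differences were Espl1 at 0.34 ± 0.38 (1.26-fold, adjusted p = 0.628), Anln at -0.52 ± 0.33 (1.44-fold lower, adjusted p = 0.344) and Kntc1 at -0.60 ± 0.56 (1.52-fold lower, adjusted p = 0.541). The 95% intervals ran from -0.48 to 1.16 for Espl1, from -1.24 to 0.19 for Anln and from -1.80 to 0.60 for Kntc1. Relative to Ptprc, Espl1 stood at -0.0015 (adjusted p = 0.999).

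**Figure D4:**
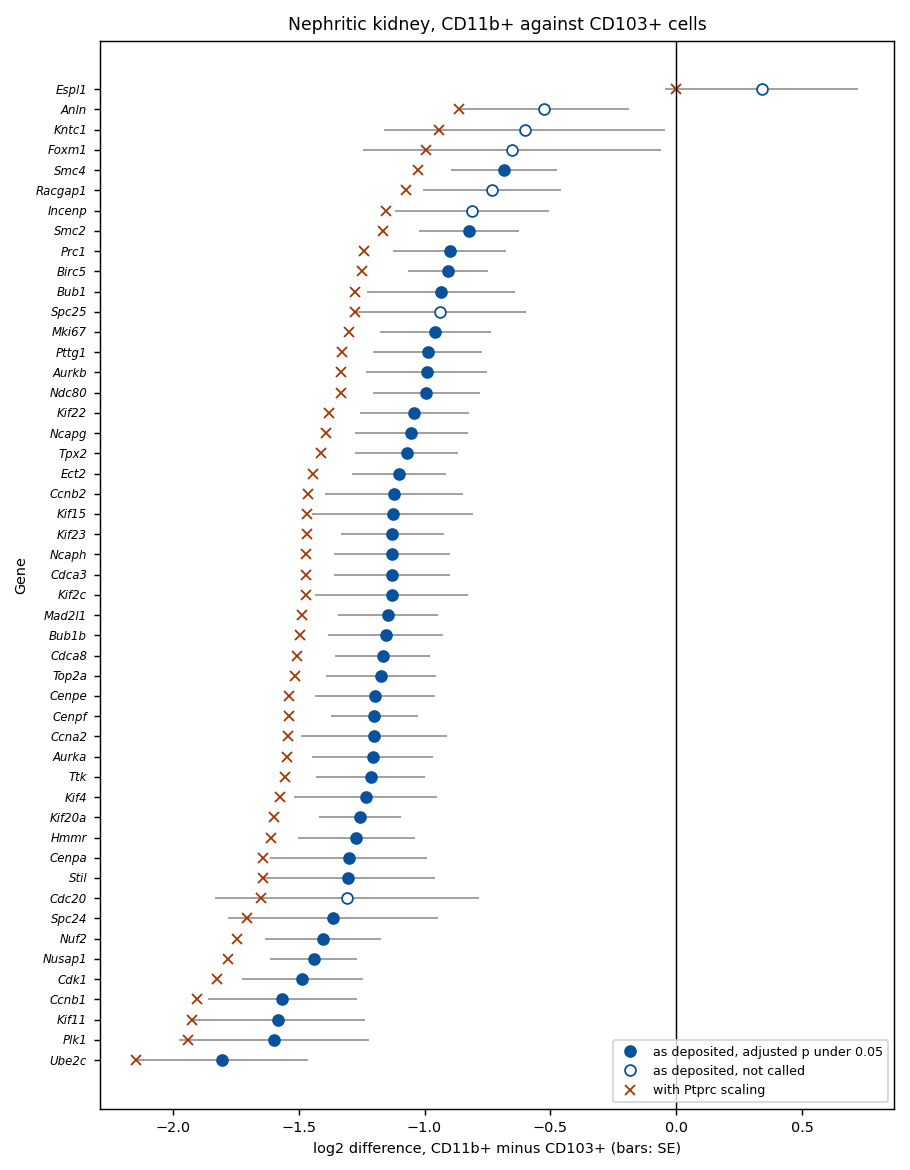
Log2 difference of each of the 49 genes between nephritic CD11b+ and CD103+ cells (circles, bars are SE; filled where the adjusted p was under 0.05) and the same difference with Ptprc scaling (crosses). Values below 0 are lower in CD11b+ cells, 41 circles are filled and Espl1 is the gene above 0 as deposited.

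The responses of the subsets to nephritis were compared in 1 term, the CD11b+ difference less the CD103+ difference, which shares its libraries with the comparisons above. As deposited it was negative for all 49 members, with a median of -1.89 against -0.07 for all genes. It passed for 44 and was positive in none that passed, against 17.7% of genes in each direction. Kif11 had the largest value at -3.19 ± 0.49 (9.14-fold lower, adjusted p = 5.77e-04), followed by Ndc80 at -2.59 ± 0.30 (6.01-fold lower, adjusted p = 1.94e-04) and Ube2c at -2.57 ± 0.48 (5.95-fold lower, adjusted p = 0.00172). Cdc20, Spc25, Incenp, Foxm1 and Espl1 did not pass, though Spc25 passed without healthy CD103+ library 2 (-1.20, adjusted p = 0.0332) or healthy CD11b+ library 1 (-1.17, adjusted p = 0.0436).

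This term depended on the reference. Relative to Ptprc it passed for 2 members, Kif11 at -1.86 (adjusted p = 0.00825) and Ndc80 at -1.25 (adjusted p = 0.0364), against 0.48% of genes lower and 37.2% higher, with a median of -0.56 against 1.27 for all genes. After the leukocyte shift it passed for 10, against 1.25% lower, with a median of -0.69 against 1.14. Without healthy CD103+ library 2 it passed for 10 lower and 0 higher relative to Ptprc, against 1.44% and 31.7% of genes, and for 22 lower and 0 higher with the leukocyte shift, against 2.28% and 40.2%. The term was negative for 43 members relative to Ptprc.

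**Figure D5:**
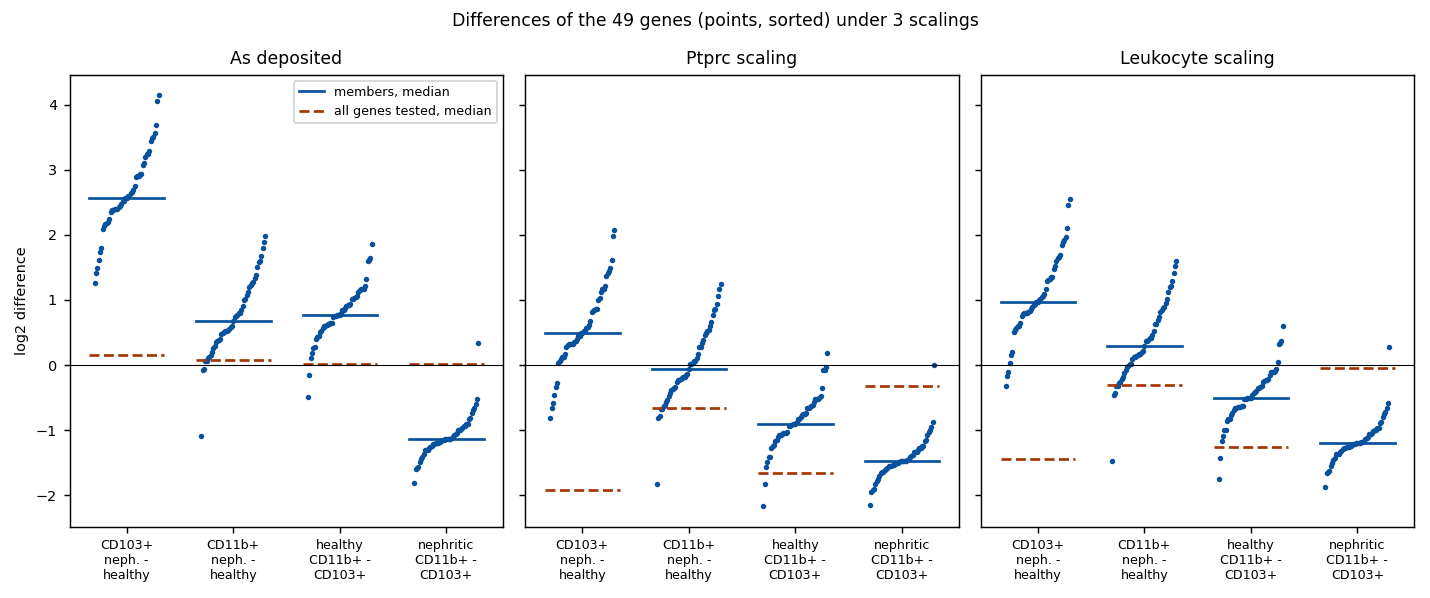
Log2 differences of the 49 genes (points, sorted within each comparison) as deposited, with Ptprc scaling and with leukocyte scaling, with the median of the members (solid line) and of all genes tested (dashed line). The nephritic subsets keep a median below -1 in each panel. The healthy subsets have a median of 0.77 as deposited and -0.91 with Ptprc scaling, each time above the median of all genes.

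Relative to Ptprc the order of the groups was less uniform than as deposited. Nephritic CD103+ cells were still highest for 43 members, but lay above every other library for 18, against 0.91% of genes. Healthy CD103+ cells were highest for Spc25, Incenp, Smc4, Cdc20, Ube2c and Pttg1. All 3 nephritic CD103+ libraries lay above all 3 nephritic CD11b+ libraries for 48 members, against 41.3% of genes. The lowest group was nephritic CD11b+ for 25 members, healthy CD11b+ for 23 and healthy CD103+ for 1. Ube2c was 2.12, 2.48 and 2.35 percent of Ptprc in healthy CD103+ and 1.34, 0.924 and 1.51 percent in healthy CD11b+ libraries. In nephritis it was 1.29, 1.67 and 1.69 percent in CD103+ and 0.268, 0.274 and 0.574 percent in CD11b+ libraries, and the lowest 3 were the nephritic CD11b+ ones. Pttg1 reached 5.42, 18.2 and 6.77 percent in healthy CD103+ libraries, the second of which again stood apart.

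Other genes of the cell cycle, in lists chosen by function, were set beside the members. Over all genes as deposited, 34.6% were higher and 27.8% lower in nephritic CD103+ cells, and 20.1% and 15.8% in nephritic CD11b+ cells. Between nephritic subsets 9.66% were higher and 8.21% lower in CD11b+ cells. Relative to Ptprc these shares were 0.959% and 81%, 1.66% and 24.9%, and 3.58% and 5.99%. With the leukocyte shift they were 2.64% and 71%, 4.92% and 18.5%, and 6.26% and 5.56%. Of 82 other mitosis genes, 74 were higher in nephritic than in healthy CD103+ cells and 0 lower, and 33 were higher and 0 lower in CD11b+ cells. Relative to Ptprc these counts were 15 higher and 13 lower in CD103+ cells and 3 higher and 1 lower in CD11b+ cells, and with the leukocyte shift 36 and 10, and 10 and 1. Between nephritic subsets 29 of the 82 were lower in CD11b+ cells and 0 higher, with a median of -0.87, and relative to Ptprc 26 were lower and with the leukocyte shift 20. The list's most abundant genes were Bub3, a checkpoint protein, Cit, the midbody kinase citron, and Zwint, a kinetochore protein. Bub3 differed between nephritic subsets by -0.23 ± 0.11 (1.18-fold lower, adjusted p = 0.177), Cit by -0.86 ± 0.14 (1.82-fold lower, adjusted p = 6.56e-04) and Zwint by -0.31 ± 0.14 (1.24-fold lower, adjusted p = 0.151).

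Of 43 genes of S phase, 40 were higher and 1 lower in nephritic CD103+ cells, and 28 were higher and 2 lower in nephritic CD11b+ cells. Relative to Ptprc 14 were higher and 5 lower in CD103+ cells and 5 higher and 5 lower in CD11b+ cells, and with the leukocyte shift 24 and 3, and 16 and 4. Between nephritic subsets 12 of the 43 were lower in CD11b+ cells and 0 higher, with a median of -0.55, and relative to Ptprc 8 were lower and with the leukocyte shift 6. Rrm2, the regulated subunit of ribonucleotide reductase, had 322 to 343 CPM in nephritic CD103+ and 108 to 126 CPM in nephritic CD11b+ libraries, a difference of -1.51 ± 0.19 (2.85-fold lower, adjusted p = 5.14e-05). Rrm1, its partner subunit, differed by -0.86 ± 0.13 (1.81-fold lower, adjusted p = 2.80e-04), and the helicase subunit Mcm4 by -0.32 ± 0.14 (1.25-fold lower, adjusted p = 0.137). The share called lower, 12 of 43 here and 41 of 49 among the members, was not tested between the lists.

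Cohesin and APC/C core genes, which act on the members but are present through the cycle, were counted in the same way. Of 25, 19 were higher and 2 lower in nephritic CD103+ cells, 7 higher and 5 lower in nephritic CD11b+ cells, and 1 lower between nephritic subsets, with a median of -0.14. The counts in CD11b+ cells, 7 and 5 of 25, lay near the shares over all genes. Relative to Ptprc 0 were higher and 22 lower in CD103+ cells and 0 and 8 in CD11b+ cells, against 81% and 24.9% of all genes lower. With the leukocyte shift the counts were 0 and 17, and 0 and 5, against 71% and 18.5% of all genes lower. These rescaled counts lay near the shares over all genes and are not read as a change of these genes. Between nephritic subsets 0 were then called on either scale, where 3 and 1 were lower at an unadjusted p under 0.05. The most abundant were Mau2, part of the cohesin loader, at -0.11 ± 0.15 (1.08-fold lower, adjusted p = 0.683), Wapl, the cohesin release factor, at -0.45 ± 0.14 (1.37-fold lower, adjusted p = 0.034), and Smc1a, a cohesin ATPase, at -0.14 ± 0.12 (1.10-fold lower, adjusted p = 0.483) between nephritic subsets. Of 18 measured G1 cyclins, CDK inhibitors and pocket proteins, 11 were higher and 2 lower in nephritic CD103+ cells and 2 higher and 2 lower in CD11b+ cells. Relative to Ptprc 0 of these were higher and 11 lower in CD103+ cells and 0 and 6 in CD11b+ cells, against 81% and 24.9% of all genes lower. With the leukocyte shift the counts were 1 and 9, and 0 and 4, against 71% and 18.5% of all genes lower. Both shifts move every gene of a comparison by the same amount. Between nephritic subsets 2 were higher and 2 lower. Btg2 and Btg1, which restrain proliferation, differed by 0.44 ± 0.21 (1.36-fold, adjusted p = 0.177) and -0.07 ± 0.36 (1.05-fold lower, adjusted p = 0.932), and the G1 kinase Cdk6 by 0.31 ± 0.16 (1.24-fold, adjusted p = 0.213).

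Per kilobase of exon, and averaged over the 4 groups, Smc4 led at 41.4 CPM per kb, followed by Pttg1 at 24.9, Ccnb2 at 18.6, Top2a at 15.8 and Nusap1 at 15.1. Kntc1 was lowest at 0.669 CPM per kb and Espl1 next at 0.855. Read assignment was uncertain for 8 members, whose exons share more than 10% of their 50-base stretches with other genes. Kif20a shares 25.2% with Cdc23. Over all other genes, the share was 23.4% for Ccnb1, 16.0% for Ube2c and 14.5% for Kif4. The genes sharing most were 2 pseudogenes for Ccnb1, Tnnc2 and 1 more gene model for Ube2c, and Pdzd11 and a pseudogene for Kif4. For Ncapg, Ccna2, Cdc20 and Plk1 the share was 11.8%, 11.4%, 10.6% and 10.4%. The sources used here do not give whether counting used strand.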

How the data were processed

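RNA was measured in 12 libraries of CD103+ and CD11b+ kidney dendritic cells. Per the labels' protocols, cell suspensions were enriched for leukocytes on CD45 beads and sorted, and SMARTer Ultra Low libraries were read as single 50-base reads. The authors deposited log2 values, 1 per gene and library. The submitters' processing notes name STAR 2.0.4b, featureCounts 1.4.5, Subread and edgeR, with no role or order. The sources used here do not give the authors' genome build. Reads carry no molecular identifiers and are not independent molecules.

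The table held 26281 lines, and dropping 160 repeats left 26121 genes. IDs of 26022 were in GENCODE M21 (GRCm38), used for exon lengths and to restore 27 symbols stored as dates. Deposited log2 values became whole reads (100% within 0.05 in every library) when taken as log2 CPM with 0.5 reads added, and scaling factors ran from 0.921 to 1.081. CPM here are those reads divided by the scaled size of the library.

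A gene was tested where at least 3 libraries reached a log2 value of 0 (1 CPM). This kept 14180 genes, all 49 members among them, and left out 11941. In R 4.3.3, limma 3.58.1 was fitted to all 12 libraries with a mean for each group, an empirical Bayes trend and robust variances. All tests were two-sided, the Benjamini-Hochberg adjustment ran over all genes tested, and the threshold was 0.05. Ptprc scaling shifted each library to 1 log2 value of Ptprc, and leukocyte scaling to 1 mean of 29 pan-leukocyte genes. Replicates differed by more than sampling noise, and none were merged. Figures were drawn with matplotlib 3.10.9 under Python 3.11.15. The procedure was run on simulated data, in which the groups had the same mean for all but a set of changed genes. Differences between groups in tubule or leukocyte RNA were not simulated, so that run does not cover them.

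The members, the role, pathway and marker lists and the scalings were chosen with earlier results of these data known. Levels by library are given for the 2 most abundant members of each role. Differences are given for the member with the smallest adjusted p of each role and for the 3 largest and 3 smallest per comparison, and for the 3 most abundant genes of each pathway list. Other members were added after their values were seen. Other settings tried were another offset, other filters and scalings, array weights, fewer groups, replicate blocks and each library left out. Promoter sequences are from the RefSeq table of GRCm38.p6.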

Additional observations from a re-analysis of the deposited data

Results flagged for a closer look

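The response to nephritis differed between the subsets, by the test of the difference itself on the deposited scale (CD11b+ minus CD103+ response, limma, adjusted over 14180 genes), for 44 members, all lower, where 17.7% of all genes were lower. The differences of the members named by the rule were Cdk1 at -1.89, Mad2l1 at -1.68, Cenpf at -2.41, Ndc80 at -2.59, Birc5 at -1.83, Top2a at -2.21, Kif11 at -3.19, Nusap1 at -2.19, Kif20a at -2.03 and Ube2c at -2.57 (log2). Relative to Ptprc 2 members passed and with the leukocyte shift 10, against 0.48% and 1.25% of all genes lower. Without healthy CD103+ library 2 the counts were 10 and 22, against 1.44% and 2.28%. The part of tubule RNA and of the leukocyte share in the difference was not tested.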

How the results depend on the processing

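The counts of members called on the deposited scale kept their direction in every setting that left the scale as deposited. Relative to Ptprc, the members called were 16 higher in nephritic against healthy CD103+ cells (0.959% of all genes) and 1 higher and 2 lower in CD11b+ cells (1.66% and 24.9%). They were 0 higher and 30 lower in healthy CD11b+ against healthy CD103+ cells (2.97% and 76.3%), and 2 lower for the difference of responses (0.48%). Here and below, the counts lower between the healthy subsets lay below the shares over all genes in brackets and are not read as a fall of the members. With the leukocyte shift the members called were 10 higher in CD11b+ nephritis (4.92% of all genes), 0 higher and 11 lower between the healthy subsets (5% and 67.8%), and 10 lower for the difference (1.25%). Without healthy CD103+ library 2, relative to Ptprc, they were 30 higher in CD103+ nephritis (2.07% of all genes), 0 higher and 22 lower between the healthy subsets (4.3% and 68.6%) and 10 lower for the difference (1.44%). With the leukocyte shift and without that library, they were 1 higher and 9 lower between the healthy subsets (6.3% and 59.6% of all genes) and 22 lower for the difference (2.28%). These 2 settings and voom were chosen after seeing the data. With only the groups compared, 19 were higher between the healthy subsets. With each library left out in turn, the count ran from 48 to 49 higher in CD103+ nephritis, 19 to 27 higher and 0 to 1 lower in CD11b+ nephritis, 25 to 36 higher between the healthy subsets, 34 to 38 lower between the nephritic subsets and 43 to 46 lower for the difference. With voom on recovered reads the counts were 49, 27 higher and 1 lower, 27, 45 and 45 in that order. The planned edgeR test on whole reads was not run, since the deposited unit is log2. Relative to Ptprc, the sign of the deposited difference was kept by 3 of 49 members between the healthy subsets, 43 in CD103+ nephritis, 27 in CD11b+ nephritis, 48 between the nephritic subsets and 43 for the difference. After the leukocyte shift it was kept by 7, 46, 39, 49 and 44 in that order. Values are given here only for those that changed sign among the members the naming rule picks in each comparison. Relative to Ptprc these were, between the healthy subsets, Birc5 (-0.75), Ccna2 (-0.75), Kif11 (-0.067), Kif23 (-0.52), Kntc1 (-0.030), Ndc80 (-0.080), Nuf2 (-1.49), Pttg1 (-1.05), Smc4 (-0.52) and Ttk (-1.57). In CD103+ nephritis they were Cdc20 (-0.65), Spc25 (-0.81) and Ube2c (-0.59), and in CD11b+ nephritis Kif23 (-0.68) and Plk1 (-0.68). Between the nephritic subsets it was Espl1 (-0.0015), and for the difference Cdc20 (0.51), Espl1 (0.62) and Spc25 (0.55). After leukocyte scaling these were Birc5 (-0.34), Ccna2 (-0.35), Kif23 (-0.11), Nuf2 (-1.08), Pttg1 (-0.64), Smc4 (-0.11) and Ttk (-1.16) between the healthy subsets, Cdc20 (-0.17), Spc25 (-0.33) and Ube2c (-0.10) in CD103+ nephritis, Kif23 (-0.32) and Plk1 (-0.32) in CD11b+ nephritis, and Cdc20 (0.39), Espl1 (0.49) and Spc25 (0.42) for the difference. Spc25 was 0.28 between the healthy subsets with array weights, and Kif23 was -0.12 in CD11b+ nephritis after quantile normalization. With each library left out, Spc25 ran from -0.37 to 0.27 and Ttk from -0.069 to 0.23 between the healthy subsets. In CD11b+ nephritis Smc4 ran from -0.21 to 0.11, Kif23 from -0.16 to 0.22 and Plk1 from -0.31 to 0.39. Beyond these scaling shifts, by construction equal for every gene of a comparison, the cause was not tested. Deviations of same-numbered libraries correlated at -0.15 to 0.00 in healthy and 0.05 to 0.15 in nephritic groups. Between differently numbered libraries the correlations were -0.10 to 0.11 in healthy and -0.14 to 0.07 in nephritic groups. In the nephritic groups the same-numbered values were all positive and most of the others negative. All were small and no label ties a number to a mouse, so the numbers were not taken as pairs. With the replicate block, 30 were higher between the healthy subsets, 39 lower between the nephritic subsets and 43 lower for the difference. Reads per library (11.5 M to 26.6 M) limited the members of a few reads.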
